A study of Daphnia magna with 24 samples.

Results

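Among the 7680 features of a cDNA microarray of the water flea Daphnia magna, 332 had a low log ratio in the same 4 of 12 exposures, 1 exposure at each of 4 sites. The features were selected on those log ratios themselves. The 4 exposures, called the low set here, are exposure 2 to upstream water, exposure 1 to entry water, exposure 1 to the water named downstream 1 and exposure 2 to that named downstream 2. A feature was taken when its mean over the low set lay at least 0.8 under its mean over the other 8 exposures, when the low-set exposure was under its own site's mean at all 4 sites, and when its mean over the 9 entry and downstream exposures was under 0.4 in size. A value in all 12 exposures was needed, which 6951 features had, so the members are 4.78% of the features that could be judged. Low values in the low set are therefore how the members were found and are given below as a description, with no test.

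Daphnia magna is a freshwater crustacean that reproduces mainly by cloning and is a standard animal for testing water quality. Copper, an essential metal, is toxic to it in excess. Adult females aged 14 to 16 days were kept for 24 h at 23.5 °C, either in water collected at Greenhorn Mine in California or in COMBO, a defined freshwater medium that served as the unexposed laboratory control. The animals are described as genetically homogeneous, and 10 to 15 whole animals were pooled for an exposure. There were 3 exposures to each of 4 waters, which differed in copper by amounts that were not analysed here: upstream water, water from the entry of the mine drainage, and the waters named downstream 1 and downstream 2. Whole-animal RNA mixes all organs, so a change of RNA per cell and a change in the number of cells of a type cannot be told apart.

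On a 2-colour array, RNA of exposed and of control animals is labelled with different dyes and hybridised to the same spots. A feature's value is then the log ratio of both dyes, and an RNA equally abundant in both samples lies at 0. Each exposure was measured on 2 arrays with the dyes exchanged, Cy5 on the exposed RNA in one and Cy3 in the other, so that 24 arrays gave 12 exposures. The values are taken as log2, but no source used here names the base, and sizes hold only if it is 2. No source states which sample is the numerator either, so values are called negative and positive. The features carry only array IDs. None of these could be matched to a table of Daphnia magna genes (0 of 7680), so no gene is named, and several features may stand for 1 gene.

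The members went strongly negative in upstream exposure 2 and entry exposure 1 and less so in the downstream exposures of the low set. In upstream exposure 2 their values ran from -4.12 to 0.14 with a median of -1.45. In entry exposure 1 they ran from -3.11 to 0.10 with a median of -1.50. Downstream 1 exposure 1 had a median of -0.82 (from -1.62 to 0.00), and downstream 2 exposure 2 one of -0.66 (from -1.47 to 0.63). Values under -1 were reached by 277 members in upstream exposure 2 and by 283 in entry exposure 1, against 83 and 38 in the downstream exposures. In 294 of the 332 members both of the former lay under both of the latter. The order of the first pair was not settled, since upstream exposure 2 was under entry exposure 1 in 137 members, while downstream 1 exposure 1 was under downstream 2 exposure 2 in 245. The rule asked for a low mean and set no order of depth. Its bound on the mean over entry and downstream exposures limits how deep those can go, but not upstream exposure 2. This order is therefore a description shaped in part by the rule.

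The other 8 exposures were not alike. Downstream 2 exposure 1 was positive, with a median of 0.67 (from -2.37 to 2.96), and was the highest of the 8 in 261 members. Upstream exposure 3 (median 0.25), entry exposure 2 (0.18) and entry exposure 3 (0.22) were slightly positive, and 319, 294 and 307 members were above 0 there. Downstream 1 exposure 2 and downstream 2 exposure 3 sat near 0, at -0.02 and 0.02. Downstream 1 exposure 3 was at -0.16, and upstream exposure 1 at -0.19 with a wide range from -2.45 to 1.81. Upstream exposure 1 was the lowest of the 8 in 178 members and downstream 1 exposure 3 in 107. The rule used these 8 through their mean, the site means and the bound on entry and downstream exposures, so their levels are also only a description.

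**Figure D1:**
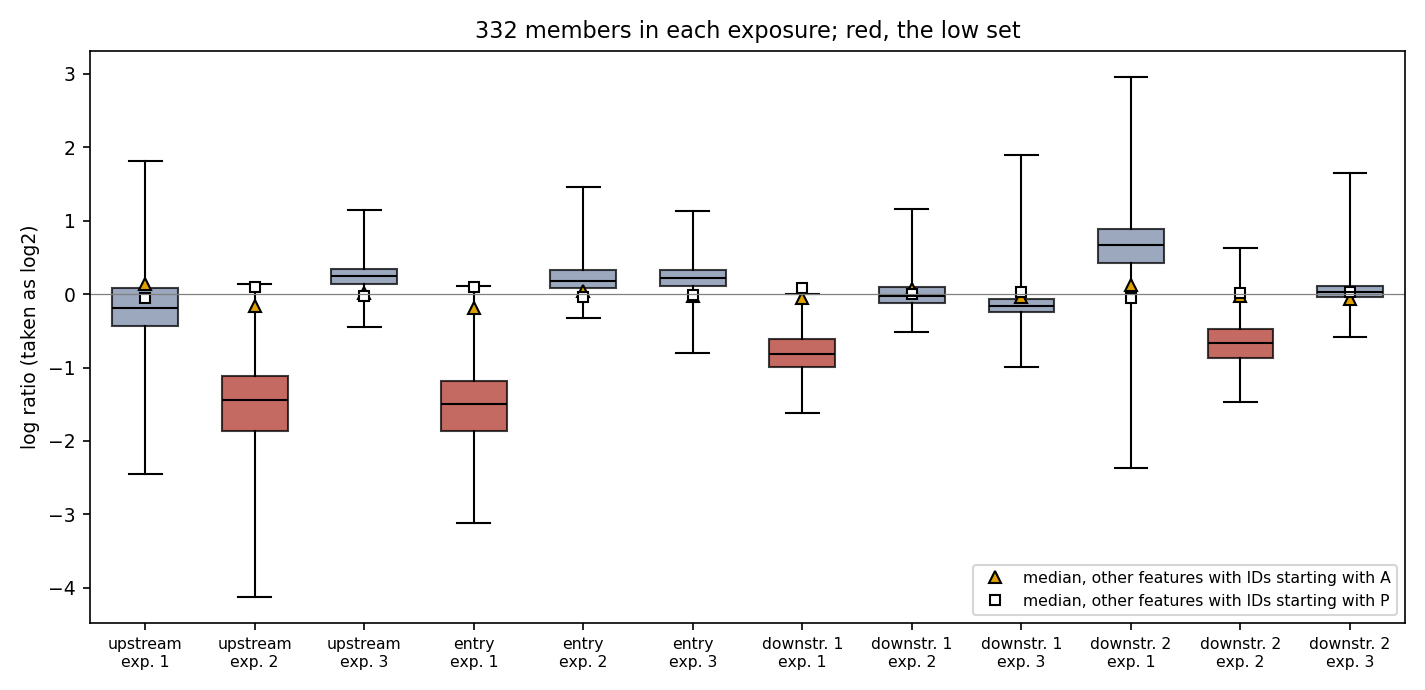
Log ratios (taken as log2) of the 332 members in each of 12 exposures: boxes span the quartiles, lines mark medians, whiskers reach the lowest and highest member, red boxes are the low set, and symbols are medians of the other features by ID prefix. The red boxes have medians from -1.50 to -0.66, and the highest median, 0.67, is that of downstream 2 exposure 1.

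The low-set exposure was set beside both other exposures of its site. Relative to their mean, the median member stood at -1.70 for the entry and -1.54 for upstream water, with -0.97 for downstream 2 and -0.73 for downstream 1. The lowest of all 12 exposures was entry exposure 1 in 186 members and upstream exposure 2 in 134. The distance at downstream 2 included the positive downstream 2 exposure 1. Without that exposure 196 features met the rule, 187 of them among the 332. In 267 members (80.4%) the low set lay wholly under the other 8 exposures, with a gap of up to 0.85. This count follows from the choice of members, so nothing is read from it. Over all members, the low-set mean minus the mean of the others ran from -2.37 to -0.80 with a median of -1.20.

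The largest difference belonged to A7E15. In the low set its values were -2.45 (upstream), -2.09 (entry), -1.36 (downstream 1) and -1.22 (downstream 2). In the other exposures the upstream values were -1.39 and 0.40, the entry values 1.46 and 1.03, and the downstream values 0.63 and 0.38 for downstream 1 and 1.49 and 0.68 for downstream 2. Upstream exposure 1 was thus also low, and the low set overlapped with the rest by that exposure alone. All 8 arrays of the low set were negative for A7E15, from -2.56 to -0.96.

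The next 5 members ran closer to each other than to A7E15. A6J7 was at -3.08, -3.11, -1.43 and -0.97 in the low set, in the order upstream, entry, downstream 1 and downstream 2. A4O20 was at -3.04, -2.79, -1.47 and -1.15, and A6L19 at -3.21, -2.87, -1.22 and -1.09. A4P20 was at -2.72, -2.49, -1.49 and -1.02, and A4P8 at -3.16, -2.51, -1.62 and -0.93. All 5 were between 1.48 and 1.77 in downstream 2 exposure 1 and between -1.94 and -0.73 in upstream exposure 1. In the remaining 6 exposures they lay between -0.31 and 0.56, so that these 5 members combined deep lows with a high in downstream 2 exposure 1. The rule favours this combination, since it bounds the mean over entry and downstream exposures at 0.4 in size. That mean was already -0.375 to -0.309 in these 5 members, and deep lows without a high can fall beyond the bound. The combination is therefore a description shaped in part by the rule.

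Members with the clearest separation were less extreme. A6M20 had the widest gap, 0.85, and its low-set values were nearly level, at -1.03, -1.47, -1.25 and -1.09 in the same order of sites. Its other 8 exposures lay between -0.18 and 0.64, and it was at -0.16 in downstream 2 exposure 1, where most members were high. A7F21 followed with a gap of 0.83, at -2.07, -2.33, -1.04 and -1.02 in the low set and between -0.19 and 1.09 elsewhere. A4B20 had a gap of 0.78, at -1.82, -1.59, -1.15 and -0.95 against -0.18 to 0.58. In A7H20, with a gap of 0.82, 1 array carried much of the upstream value of -3.18, with -5.23 for exposed RNA in Cy5 and -1.12 in Cy3. Its difference between the low set and the others was -1.94 with both dyes, -2.83 with Cy5 alone and -1.05 with Cy3 alone.

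The largest distance within a site was that of A4I19 upstream. It was at -4.12 in upstream exposure 2 and at 0.64 and 0.21 in the others. That low value came from 1 array with exposed RNA in Cy5, since its partner had no value there, and at downstream 2 the feature was at -0.23. At the entry A6J7 and A7E15 had the largest distances, -3.56 and -3.34. At downstream 1 they belonged to A7E15 (-1.86) and P1AB3 (-1.84). At downstream 2 they were those of A7E15, at -2.31, and of A5H20, at -2.17, which was at -1.47 in exposure 2 and at 1.41 and 0.00 in the others.

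**Figure D2:**
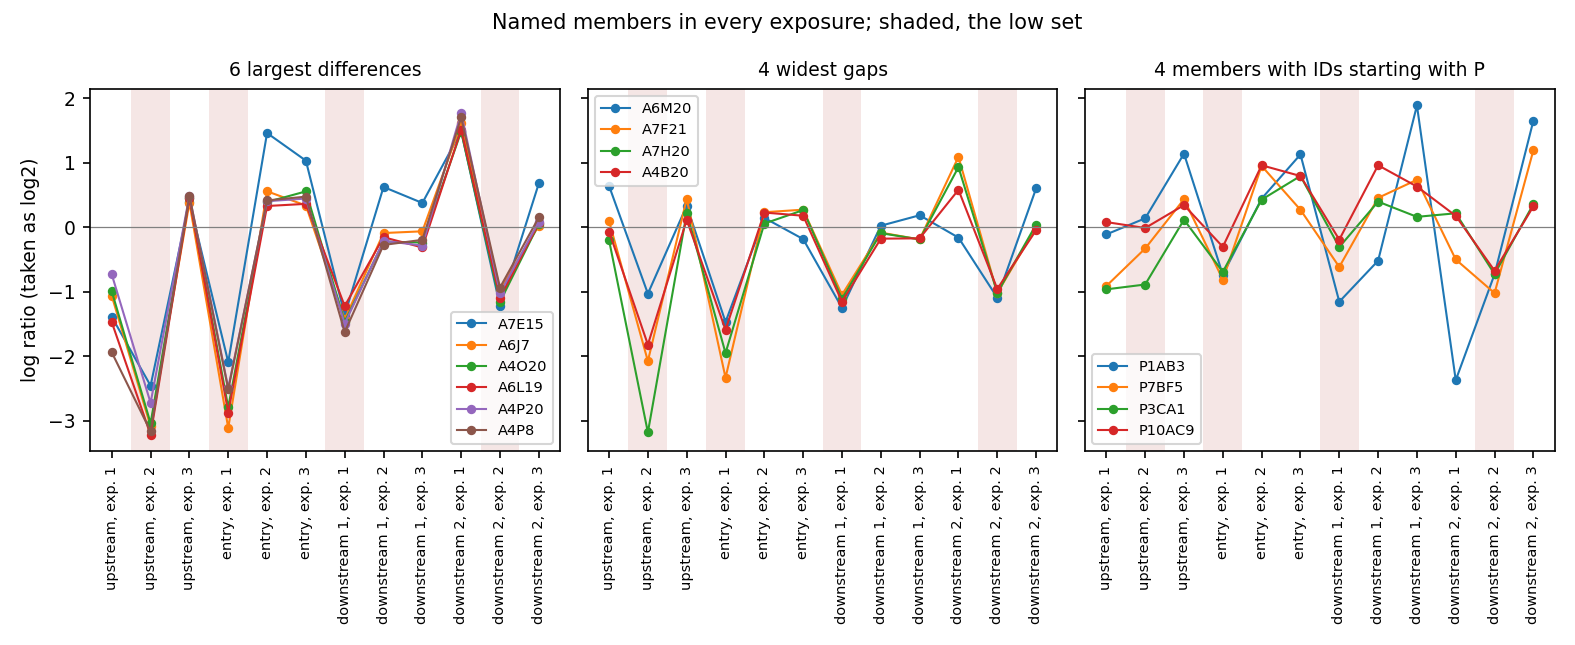
Log ratios (taken as log2) of named members in each exposure, with the low set shaded: the 6 members of largest difference, the 4 with the widest gap and the 4 whose IDs start with P. The 6 members on the left reach -3.21 to -2.45 in upstream exposure 2, while those on the right lie between -0.89 and 0.14 there.

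At the edge of the rule, A5A17 (-0.806), A7G22 (-0.804) and A4J12 (-0.803) were the members nearest to the threshold of -0.8. A4O17 (-0.7996), A4O23 (-0.798) and A2N20 (-0.797) met the other conditions and fell just outside. A5A17 had -0.89, -1.12, -0.34 and -0.49 in the low set, and A4O23 had -0.86, -1.12, -0.34 and -0.46, so features on either side of the threshold can have nearly the same values. In all, 446 features had a difference of -0.8 or lower. Of these, 23 were not under the site mean at every site and 91 were lost to the bound of 0.4 on the mean over entry and downstream exposures. Of the 91, 59 had a mean of -0.4 or lower, all 59 with IDs starting with A. The lowest difference among the 91 was -2.66, against -2.37 among the members, so the bound also removed a larger difference than any member had. The 729 features without a value in all exposures, 585 of them with IDs starting with A, were not judged.

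The mirror rule, a mean over the low set at least 0.8 above the others with the remaining conditions turned, was met by 12 features.

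The members nearly all came from 1 series of IDs, which the rule did not use. IDs start with A (2688 features) or P (4992), and the sources used here do not say what the letters stand for. IDs starting with A made up 30.3% of the features with a value in all exposures and 98.8% of the members. Of 2103 such A features, 328 were members (15.6%), against 4 of 4848 P features (0.0825%). Over all A features with a value in every exposure, members included, the low set was lower than the others in 76.5%, with a median difference of -0.20, against 32.5% and 0.08 among P features. A features that were not members had low-set medians of -0.16 (upstream), -0.19 (entry), -0.06 (downstream 1) and -0.03 (downstream 2). Their medians in the other exposures were -0.07 to 0.14. Of these medians, those of upstream exposure 2 and entry exposure 1 were the lowest, and both downstream low-set medians lay within the range of the other exposures. The rule takes out features with large differences, so small medians outside the members follow in part from the selection. Features lost only to the bound are among these other A features. A difference of -0.8 or lower was found in 403 A and 43 P features, and one of 0.8 or higher in 20 and 52. Arrays were centred over both series together, which sets the zero of each array.

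**Figure D3:**
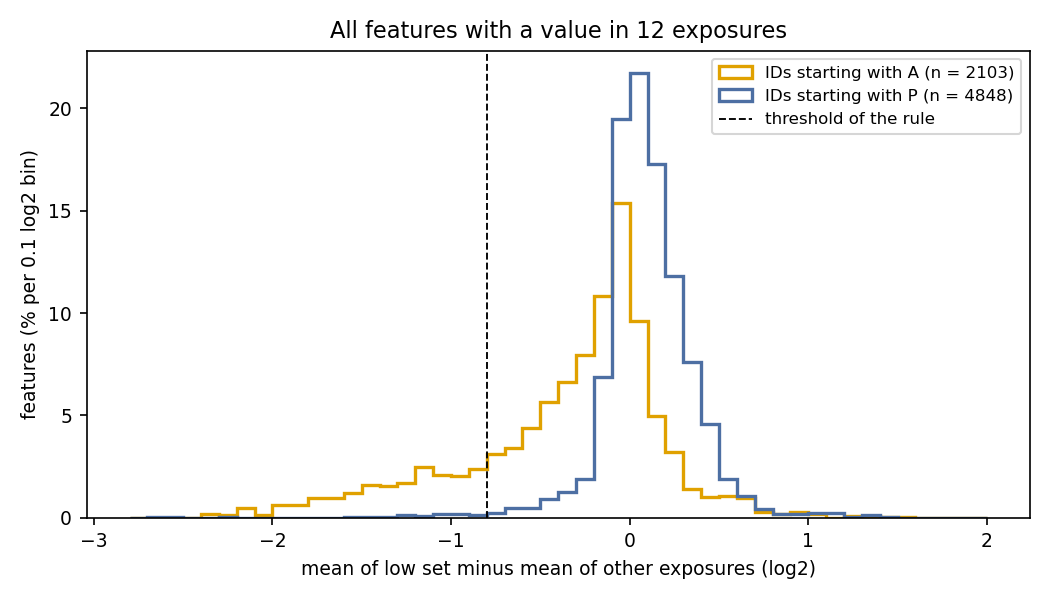
Mean of the low set minus mean of the other 8 exposures (taken as log2) for all 6951 features with a value in every exposure, as the share of features per bin for IDs starting with A and with P. The A features have a long tail to the left of the dashed threshold of -0.8, holding 403 of 2103, while the P features centre at 0.08.

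The 4 P members are named together, a group singled out after their values were seen. P1AB3, P7BF5, P3CA1 and P10AC9 differed by -1.03, -1.02, -0.84 and -0.83. In upstream exposure 2, where the median member was at -1.45, they were at 0.14, -0.33, -0.89 and -0.01. In downstream 2 exposure 1 they were at -2.37, -0.50, 0.22 and 0.18, and P1AB3 was lowest there of all its exposures. The P members thus met the rule with a course through the exposures unlike that of most A members.

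Within the A series the members were unevenly spread over the plates and rows that the IDs appear to spell, with a plate number, a row letter from A to P and a column number. This reading comes from the pattern of the IDs, and slide positions were not analysed here. Plates A4 and A7 held 107 and 87 members, which is 30.9% and 26.0% of their features with a value in all exposures. Plates A6, A5, A2 and A1 held 41, 37, 27 and 25 (11.1%, 12.5%, 11.5% and 6.79%), and plate A3 held 4 of 155. Leaving out plate A3, the members' median in entry exposure 1 ran from -1.65 on plate A7 to -1.09 on plate A1, and in downstream 1 exposure 1 from -0.91 to -0.66 on the same plates. Members of every plate were chosen for low values in these exposures, so that they are low there is no finding.

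Members also sat in runs of rows. On plate A1, rows A to D held 23 members of 95 measured features while rows E to H held none of 92 and rows I to L none of 95. On plate A2 rows I to L held 23 of 87. On plate A7 rows E to H held 44 of 95, rows I to L 18 of 94 and rows M to P none of 55. On plate A6 rows E to H held none of 95 and rows I to L 23 of 93. The densest group was rows M to P of plate A4, with 47 of 94. Taking each A plate in groups of 4 rows, a grouping made after the pattern was seen, 9 of 28 groups held at least 20 members each. They held 256 members, or 77.1%, with 38.5% of the measured A features, and 9 groups with 475 measured features held none.

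**Figure D4:**
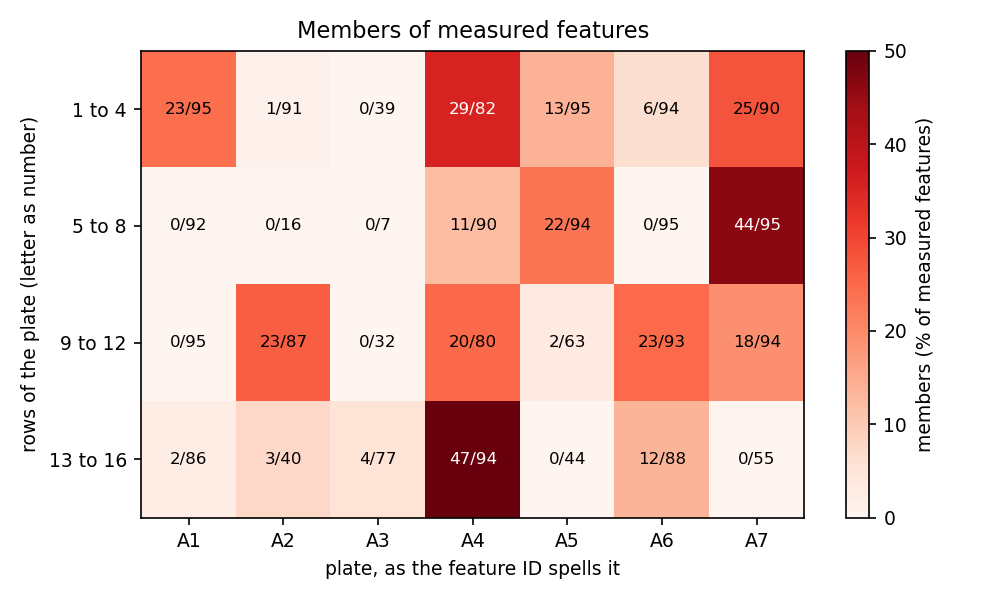
Members out of features with a value in all 12 exposures, by plate A1 to A7 (horizontal) and groups of 4 rows (vertical, row letters written as numbers 1 to 16), coloured by percent. Groups of 1 plate differ, as on plate A7 with 44 of 95 in rows 5 to 8, 18 of 94 in rows 9 to 12 and 0 of 55 in rows 13 to 16.

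The rule used the other 8 exposures through their mean, the site means and the bound on the mean over entry and downstream exposures, so the members' course over them is a description shaped in part by selection. Each member was correlated with the mean of the remaining members over those 8 exposures. The median r was 0.89, and 278 of 332 members (83.7%) were above 0.5. The same measure against the members' mean had a median of 0.08 in 1775 other A features (18.5% above 0.5) and of -0.06 in 4844 other P features (7.12%). These r values rest on 8 points that share arrays and possibly control RNA, and are a description. A5A17, at the edge of the rule, reached 0.989, as did A4P20, while A6M20 was at -0.62 and A4I19 at -0.49. A few members with the low set in common therefore took another course elsewhere.

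Spread in the other 8 exposures was also uneven. A2I3 and A4A18 had the smallest SD over them, 0.11 and 0.12. A4A18 was at -1.27, -1.33, -0.69 and -0.78 in the low set and between -0.21 and 0.15 elsewhere. P1AB3 and A2K18 had the largest, 1.40 and 1.18, with A2K18 at 2.96 in downstream 2 exposure 1 and 1.52 in upstream exposure 1. The mean over the 8 was highest in A2K19 (0.78) and A6L15 (0.64) and lowest in A2I10 (-0.09) and A4A15 (-0.07). It was above 0 in 308 members.

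Both dye orientations showed the low values. With exposed RNA in Cy5 the members' medians were -1.62 in upstream exposure 2, -1.66 in entry exposure 1, -0.97 in downstream 1 exposure 1 and -0.86 in downstream 2 exposure 2. With exposed RNA in Cy3 they were -1.33, -1.39, -0.71 and -0.53. The Cy5 array was the lower one in all 4 exposures. The difference between the low set and the others had a median of -1.37 on Cy5 arrays and -1.06 on Cy3 arrays, and was negative in 331 and 332 members. Of the 288 members with a value on all 8 low-set arrays, 254 were negative on every one. All 24 arrays measured 64.8% of the members, against 57.2% of the A features with a value in every exposure.

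**Figure D5:**
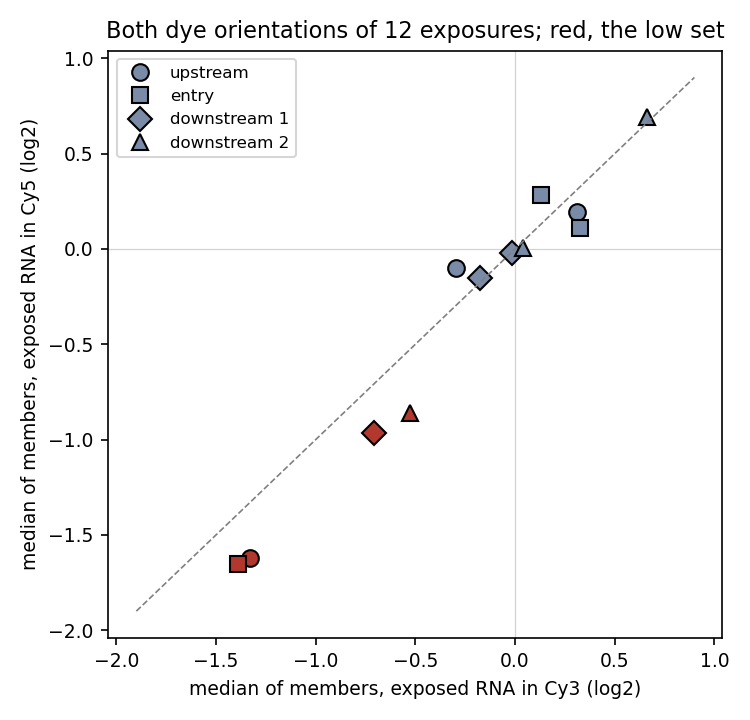
Median log ratio (taken as log2) of the members on the array with exposed RNA in Cy5 (vertical) against that on its dye-swap partner with Cy3 (horizontal), 1 point per exposure with shapes for sites, red for the low set and a dashed line of equality. The 4 red points are negative on both axes and lie under the line, and the others lie between -0.30 and 0.69.

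The dye effect, taken per exposure as the Cy5 minus the Cy3 array divided by 2 and averaged over the exposures, is not itself the mean that chose the members and was tested. Where the dye orientations differ in spread, it is not independent of that mean. Nothing is therefore read from the direction of the members' dye effects. In limma at an adjusted p under 0.05, 90 of 332 members (27.1%) had a dye effect, 70 negative and 20 positive, against 57.4% of the 7210 features tested. The members' median size was 0.08 and that of all features 0.12, and this quantity varied more between exposures in members (median SD 0.18) than in all features (0.12), with 0.16 among A features. Nearly all members have IDs starting with A, and the share called among A features alone was not computed. The shares called in members and in all features therefore mix ID series with membership. The members' median of the same quantity was -0.14 over the low set and 0.02 over the other exposures. A7D2 had the largest negative effect that passed, -0.33 (SE 0.05, limma adjusted p 0.00015), with the Cy5 array the lower in 11 of 11 exposures measured both ways. A4L7 was at -0.37 and did not pass (SE 0.15, adjusted p 0.058). Among positive effects A4E15 was at 0.26 (SE 0.06, adjusted p 0.0015), and A2K18 at 0.27 did not pass (SE 0.18, adjusted p 0.23).

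The sites were then compared, each of them holding 1 exposure of the low set. All 332 members were tested in the limma fit of 7388 features. The rule picks features that vary strongly within each site, which widens the error of every site mean, so these tests have little power for the members. The SD of the median member over 3 exposures was 0.99 for entry and 0.94 for upstream water, and 0.66 and 0.44 for downstream 2 and downstream 1. Over all features with a value in every exposure the same medians were 0.17, 0.25, 0.20 and 0.15.

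Against control, no member passed limma's adjusted threshold at any site, beside 5.48% of all features for the entry, 3.21% for downstream 1, 6.66% for downstream 2 and 0.0% for upstream water. At an unadjusted p under 0.05 there was 1 member for upstream water, where 480 of all 7388 features lay under it, and 0 for each of the others, where 1122 (entry), 1010 (downstream 1) and 1481 (downstream 2) did. The rule itself bounded the means over mine water, so nothing is read from these counts. The median site mean of the members was 0.01 for downstream 2, -0.33 for downstream 1, -0.39 for the entry and -0.48 for upstream water, against medians between -0.02 and 0.02 over all features. These means rest on single exposures. Without its low-set exposure the median was 0.35 for downstream 2, -0.09 for downstream 1, 0.20 for the entry and 0.03 for upstream water, and without downstream 2 exposure 1 that of downstream 2 was -0.33. With array weights the entry was at -0.03. The member of lowest p upstream was A4K17, at -1.45 ± 1.51 (SD, n = 3, limma adjusted p 0.77). It had -2.45, -2.19 and 0.28 in the 3 upstream exposures. The others of lowest p were A5E8 at the entry (-0.52 ± 0.86, adjusted p 0.49), A7G1 at downstream 1 (-0.55 ± 0.49, adjusted p 0.45) and A5L3 at downstream 2 (0.70 ± 0.75, adjusted p 0.35).

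Between sites, no member passed in any of 6 limma comparisons, nor at an unadjusted p under 0.05. Of all 7388 features, 755, 588 and 813 were under that p for entry, downstream 1 and downstream 2 against upstream. For downstream 1 against entry, downstream 2 against entry and downstream 2 against downstream 1 they were 41, 253 and 262. The share of all features that passed was 1.33% for entry against upstream, 0.65% for downstream 1 against upstream, 1.31% for downstream 2 against upstream, and 0.0% for each of the 3 comparisons among entry and downstream sites. Over all 4 sites the F test called 0 members and 0.568% of all features. The members' median difference was 0.10 for entry minus upstream, 0.17 for downstream 1 minus upstream and 0.47 for downstream 2 minus upstream. It was 0.06 for downstream 1 minus entry, 0.39 for downstream 2 minus entry and 0.32 for downstream 2 minus downstream 1. The comparisons share sites and are not independent. These medians were between -0.02 and 0.04 over all features. Single exposures set their sign as well. Without upstream exposure 2 the differences from upstream were -0.41 for entry, -0.34 for downstream 1 and -0.02 for downstream 2. Without entry exposure 1, entry minus upstream was 0.65, downstream 1 minus entry -0.51 and downstream 2 minus entry -0.19. Without entry exposure 2 or 3, entry minus upstream was -0.19 or -0.20. Downstream 1 minus entry was -0.09 or -0.03 without downstream 1 exposure 2 or 3, and -0.20 with array weights. Without downstream 2 exposure 1, downstream 2 minus downstream 1 was 0.00. No direction between sites is therefore read from these medians.

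A1D6 had the lowest p among members for both entry and downstream 1 against upstream, with differences of 0.94 and 0.79 (SE 0.52 each, limma adjusted p 0.63 and 0.84). Its mean was -0.55 ± 1.03 for upstream, 0.39 ± 0.69 for entry and 0.24 ± 0.22 for downstream 1 water (SD, n = 3). Its upstream values were -0.24, -1.69 and 0.29, so that the low-set exposure alone lay under the entry's lowest value of -0.26. A5L3 had the lowest p for downstream 2 against upstream and against the entry, with 0.96 and 0.93 (SE 0.53 each, adjusted p 0.62 and 1.00). It was at 1.49, 0.63 and -0.02 at downstream 2, and at 0.60, -1.39 and 0.00 upstream. A7B14 differed by 0.48 between downstream 1 and the entry (SE 0.46, adjusted p 1.00), and A7H24 by 0.81 between the downstream sites (SE 0.57, adjusted p 1.00). None of these differences passed limma's test, and they are not shown to be 0.

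Array-wide values were set beside the low set. Leaving the members out, features had an SD of 0.43 to 0.52 in the 4 low-set exposures and 0.23 to 0.66 in the others. Missing values took 4.86% to 6.41% of an exposure's spots in the low set and 5.21% to 7.76% in the others. The dye-swap arrays of an exposure correlated with r from 0.48 to 0.67 and from 0.12 to 0.78 without the members. In these 3 measures the low-set exposures lay within or close to the range of the rest. Array weights from limma, estimated over all features with the members included, were 0.43 for upstream exposure 2, 0.48 for entry exposure 1, 0.53 for downstream 2 exposure 2 and 0.96 for downstream 1 exposure 1, against 0.46 to 2.95 in the others. Thus 3 of the 4 lowest weights fell in the low set, and the part of this in the low values was not tested. Deviations of the low-set exposures from their site means correlated positively in all 6 pairs also among features that were not members, with r from 0.43 to 0.56 in A features and from 0.25 to 0.38 in P features. Over A and P features together, without members, r was 0.34 to 0.50 in these pairs. Over the same features, r was 0.25 to 0.53 in pairs of equal exposure number with neither exposure in the low set. In pairs of equal exposure number with 1 exposure in the low set, r was -0.52 to -0.04. Deviations from a site's mean cancel over its exposures, so these groups of pairs are not independent of each other. Whether such correlation is particular to the low set cannot be read from them. Features lost only to the bound are included, so these values are a description. The 4 low-set exposures carry exposure numbers 2, 1, 1 and 2, and the labels name no day, batch or culture that they share.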

How the data were processed

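For 24 arrays the authors deposited 1 log ratio per feature, taken here as log2. The scanner, the background correction, any filter or scaling and the log base are not given in the sources. Deposited array medians lay between -0.0359 and 0.0257, and 7015 to 7472 of 7680 features had a value per array. Both dye orientations run one way in the deposited table, and arrays were median-centred and dye-swap partners averaged, so that 1 exposure is 1 replicate. Intensities were not used here, so the number of exposures sets the precision. Whether cultures or control RNA were shared by exposures is not in the labels, so it is not known whether the exposures are independent. The p-values set an estimate against the spread between these samples, which may be technical.

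The 7388 features measured in 2 or more exposures of each site (292 were left out) entered 1 limma fit (lmFit and eBayes, limma 3.58.1, R 4.3.3; 8 residual and 1.79 prior degrees of freedom), with Benjamini-Hochberg adjustment over all features and a threshold of 0.05. Dye effects needed 6 or more exposures with both arrays. The steps were tested on simulated data. To learn whether equal exposure numbers mark pairs, deviations from the site mean were correlated. All 3 correlations passed 0.1 in downstream 2 with upstream (lowest 0.22) and in downstream 1 with the entry (lowest 0.43), and without the members the lowest were 0.25 and 0.41. In every other pair of sites some of the correlations were negative, down to -0.62 for upstream with the entry. The low-set exposures of each passing pair of sites carry equal numbers, so this check is not independent of the low set. Whether equal numbers mark pairs is therefore not settled, and the labels do not say. The alternatives were uncentred and scaled arrays, single dye orientations, array weights, all 24 arrays, features on every array, single exposures left out, sites fitted alone or paired, and other thresholds of the rule.

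The members and lists were chosen with earlier results of these data known. Named features are the 6 with the largest differences, the 4 widest gaps, the 2 largest distances per site, the 3 on each side of the threshold, the lowest p per comparison, the 2 largest dye effects in each direction, and the 2 smallest and 2 largest SDs and means over the other 8 exposures. Planned lists of marker genes could not be used without gene names. Python 3.11.15 and matplotlib 3.10.9 served for the rest.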

Additional observations from a re-analysis of the deposited data

How the results depend on the processing

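No member passed in any of 153 repeats of the 11 site results. The repeats used uncentred, scaled or weighted arrays, 1 dye orientation, all 24 arrays, features on every array, single exposures left out, or the sites alone. Among all features the number that passed ran from 0 to 1217 of 7049 (downstream 1 against control with exposed RNA in Cy3 alone). The rule picks features that vary strongly within each site, so the repeats have little power for the members. Nothing is read from the absence of calls. At most 50 members had an unadjusted p under 0.05 in any repeat (upstream water without exposure 3, where 806 of 7284 features did). The repeats include fits of 2 sites alone with a replicate block for exposure numbers. Those fits gave 0 members in each of the 6 comparisons and also 0 of all features, so that nothing is read from them about the members. The number of members with a dye effect was between 70 and 98, beside 3377 of 5073 to 4213 of 7210 among all features. The members tested differed between repeats. The lowest count was 70 of 215 with features on every array and 70 of 331 without upstream exposure 2. The highest was 98 of 331 without upstream exposure 1. The rule gave 215 features when a value on all 24 arrays was required, and 196 to 427 when 1 exposure was left out, with the lowest count without downstream 2 exposure 1 and the highest without downstream 2 exposure 2. With 1 dye orientation it gave 243 (Cy5) and 237 (Cy3), and 189 and 210 of these were among the 332. Thresholds of -0.6 and -1 gave 450 and 250, and no bound on the mean over entry and downstream exposures gave 423. Centring arrays separately within each ID prefix, an alternative chosen after seeing the data, gave 244, of which 236 had IDs starting with A. With exposed RNA in Cy3 alone A5L3 at downstream 2 turned to -0.069 and A7B14 between downstream 1 and the entry to -0.018. Neither had passed before, and the cause was not tested. The 3 exposures per site limit what these tests can call, and brightness over background could not be weighed.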
